A study of Mus musculus with 3 samples.

Results

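The 9 genes described here, Areg, Il4, Il5, Il13, Il1rl1, Il17rb, Hs3st1, Rora and Arg1, are type 2 innate effector genes: cytokines, a growth factor, receptors, enzymes and a transcription factor that mark group 2 innate lymphoid cells (ILC2). They were chosen by name, and the table of immune cells from mouse kidney holds all 9 among its 32886 genes. The kidneys came from healthy C57BL/6J males that were 10 weeks old and had received no treatment. They were dissected into cortex, OM (outer medulla) and IM (inner medulla), and CD45+ cells of each were sorted and profiled singly in Aachen, Bonn and Hamburg, so that each compartment has 3 libraries, 1 from each facility, and a facility stands for a replicate. All groups share strain, sex, age and the lack of treatment, and differ in the compartment. The 20266 cells fall into 23 clusters named by the authors. The 9 libraries held between 621 and 3677 cells, with a median of 744 to 3505 UMIs (unique molecular identifiers, each standing for a captured transcript molecule) per cell; the Aachen dataset, made with an earlier version of the droplet chemistry than the other two, was the shallowest, with a median of 887 UMIs against 3291 in Bonn and 2944 in Hamburg.

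ILC2 are tissue-resident lymphocytes that lack antigen receptors. They answer to the epithelial alarmins IL-33, through the receptor chain ST2 encoded by Il1rl1, and IL-25, through the receptor chain encoded by Il17rb. On activation they release IL-5, which acts on eosinophils, IL-13, which acts on epithelium and macrophages, and amphiregulin, encoded by Areg, a ligand of the epidermal growth factor receptor known for its part in tissue repair. Rora encodes a nuclear receptor needed for ILC2 development. Arg1 encodes arginase 1, which splits arginine and is widely used as a marker of alternatively activated macrophages. Hs3st1 encodes a heparan sulfate 3-O-sulfotransferase. IL-4 is the classic cytokine of type 2 helper T cells and of natural killer T cells, basophils and mast cells.

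Il4, Il13 and Il5 lie together in the type 2 cytokine locus on chromosome 11 (GRCm38, GENCODE vM21). Il4 spans chr11:53602982-53618669 and Il13 chr11:53631324-53634702, both on the minus strand and 12654 bases apart. Il5 lies on the plus strand at chr11:53720794-53725106, beyond Rad50, and 86091 bases separate it from Il13. The other members lie apart from this locus and from each other: Il1rl1 at chr1:40429570-40465415 (plus strand), Hs3st1 at chr5:39613935-39755475 (minus), Areg at chr5:91139599-91148432 (plus), Rora at chr9:68653786-69388246 (plus), Arg1 at chr10:24915221-24927484 (minus) and Il17rb at chr14:29996135-30008896 (minus).

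The 250 bases before the transcription start are shown for the 3 cytokine genes of the shared locus and for Il1rl1, since GATA3 is the lineage factor of ILC2. Windows of 8 of the 9 members were found in the RefSeq table (GRCm38.p6). Capitals mark the 6-letter GATA motif, searched as AGATAA or AGATAG, and equally TGATAA or TGATAG, on both strands. It is found in the windows of Il13, Il5 and Il1rl1 and not in that of Il4, and 26.5% of the 32851 promoter windows of this length hold it.
Il4 (chr11:53618666-53618915, minus strand): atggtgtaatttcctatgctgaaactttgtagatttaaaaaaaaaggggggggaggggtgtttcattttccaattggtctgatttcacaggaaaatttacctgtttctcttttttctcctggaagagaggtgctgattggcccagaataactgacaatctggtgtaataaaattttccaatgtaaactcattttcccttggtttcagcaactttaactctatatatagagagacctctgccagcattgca
Il13 (chr11:53634703-53634952, minus strand): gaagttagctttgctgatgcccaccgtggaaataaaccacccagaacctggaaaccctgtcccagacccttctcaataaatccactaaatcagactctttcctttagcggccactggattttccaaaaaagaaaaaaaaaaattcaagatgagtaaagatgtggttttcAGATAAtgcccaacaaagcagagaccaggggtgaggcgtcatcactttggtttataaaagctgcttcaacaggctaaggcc
Il5 (chr11:53720544-53720793, plus strand): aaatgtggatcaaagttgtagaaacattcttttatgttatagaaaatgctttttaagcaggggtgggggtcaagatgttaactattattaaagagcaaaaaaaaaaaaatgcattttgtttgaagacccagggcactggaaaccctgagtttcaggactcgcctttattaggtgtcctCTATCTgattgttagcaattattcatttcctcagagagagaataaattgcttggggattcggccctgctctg
Il1rl1 (chr1:40429320-40429569, plus strand): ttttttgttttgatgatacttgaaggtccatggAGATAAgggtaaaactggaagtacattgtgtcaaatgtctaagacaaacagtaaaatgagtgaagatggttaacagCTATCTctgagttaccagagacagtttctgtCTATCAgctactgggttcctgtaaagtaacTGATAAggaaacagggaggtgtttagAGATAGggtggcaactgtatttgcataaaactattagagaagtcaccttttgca
The motif began at position -81 of Il13 and -72 of Il5, counted from the transcription start, and it lay on the strand of the gene in Il13 and on the opposite strand in Il5. The Il1rl1 window held 5 matches, a number that can be read against the 6.40% of all windows that held 2 or more. The table lists another start inside each of Il4 and Il1rl1, with 1 match before each, while the windows of Areg, Hs3st1 and Il17rb had none and that of Rora had 1. A match of letters is a description and says nothing about binding in these cells.

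Before the levels are compared, the ILC2 label was checked against markers. The cluster holds 424 cells, 2.09% of all. Of 15 ILC2 markers, which include 7 of the 9 members, 10 had their highest pooled level of all clusters here. All 7 of these members were among the 10, so that of the 8 other markers 3 (Gata3, Il2ra and Nmur1) were highest in this cluster. The paper lists Gata3 and Il4 as the markers of its ILC2, so the Gata3 level is not an independent check. Among those that are not members, Gata3 was found at 7.57 UMIs per 10000 UMIs of the cluster and in 67.2% of its cells, Il7r at 7.34 and in 61.1%, Il2ra at 2.09 and Nmur1, the receptor for neuromedin U, at 0.86. Ptgdr2, the gene of CRTH2, was nearly absent with a single UMI. Foxp3 was at 0, and Cd3e reached 3.30% of the cells.

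The same cluster also held a few cells with granulocyte genes. Cpa3 and Mcpt8, protease genes of mast cells and basophils, had their highest level of all clusters here, and 16 cells carried 2 or more UMIs of mast cell or basophil markers; 11 of these were in the Hamburg cortex and OM libraries, and the 16 cells together held 94.2% of the 383 Cpa3 UMIs. These 16 cells held 11.3% of the cluster's Il4 UMIs, 10.0% of Il13 and 8.32% of Il1rl1, but 1.86% of Areg, 3.46% of Arg1 and none of Il17rb. They carried less Gata3 (2.18 UMIs per 10000) than the 384 cells without such a UMI (7.90). Defining eosinophil markers (Siglecf, Epx, Prg2, Ccr3 and Il5ra) were all at 0 in the cluster.

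Since clusters were built from expression, differences between them are given as levels and not tested. Levels are UMIs of a gene per 10000 UMIs of the pooled cells of a cluster, averaged over the facilities with at least 10 cells of it. By this measure 8 of the 9 members were highest in ILC2, and the exception was Il4. By the share of cells with a UMI after each cell had been thinned to 500 UMIs, 8 were likewise highest in ILC2, Il4 included, whereas Il5 had no UMI left.

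**Figure D1:**
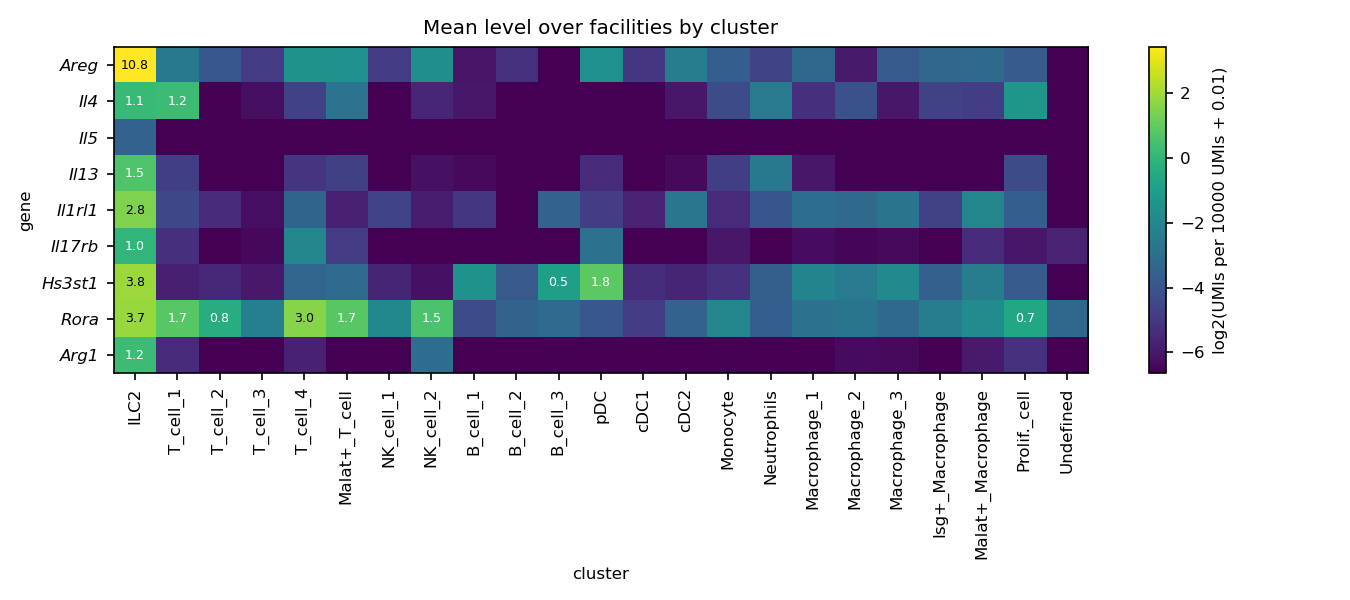
Mean level of the 9 genes (rows) in the 23 clusters (columns), in UMIs per 10000 UMIs averaged over facilities; the colour is log2 of the level plus 0.01, and levels of at least 0.5 are printed. The ILC2 column is bright for every gene but Il5, Il4 is also high in T_cell_1, and Rora spreads over T and NK clusters.

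Areg had the highest level of the members within ILC2. Its level there was 10.8 ± 10.5 (SD, n = 3 facilities), against 0.34 ± 0.46 in the next cluster, T_cell_4, and the lowest facility in ILC2 (3.32) lay above the highest in T_cell_4 (0.86). Of its 2045 UMIs, 73.1% were in ILC2. Areg was found in 46.2% of ILC2 and in 0.133% of B_cell_1 cells, a cluster of similar depth (median 2404 against 2301 UMIs) that should lack it and so gives the background. Below ILC2 no order can be read: T_cell_4, Malat+ T cells, plasmacytoid dendritic cells (pDC), NK_cell_2 and cDC2 lay between 0.18 and 0.34 with overlapping facility ranges, and in NK_cell_2 a handful of cells decided the level, since 5 of 17 positive cells held 75.8% of the UMIs.

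The other ligands of the same receptor were scarce in these cells. Hbegf had 150 UMIs in all and was highest in T_cell_4 (1.18 per 10000), and Tgfa had 49.0, of which 22.3% were in ILC2. Egf had 63.7 UMIs spread thinly, Btc and Epgn had 3.97 and 2, and Ereg was at 0.

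Il4 had a different distribution. T_cell_1 held 76.0% of its 1238 UMIs and ILC2 10.5%. The level was 1.18 ± 0.99 in T_cell_1 and 1.09 ± 0.39 in ILC2, ranges that overlap (0.44 to 2.30 and 0.70 to 1.49), so that the clusters could not be ordered. T_cell_2, with 1664 cells, had no Il4 UMI, and B_cell_1 had 3 positive cells of 3759.

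Il13 and Il5 were rarer. The Il13 level in ILC2 was 0.20 in Aachen, 0.16 in Bonn and 4.27 in Hamburg, which held 238 of the cluster's 247 UMIs. Outside ILC2, 10 T_cell_1 cells held 23.8 Il13 UMIs, while a single Hamburg cell in the neutrophil cluster held 35.0, and of the 3 cells of that cluster with Il4, 2 carried the basophil protease gene Mcpt8, which 0 of its 270 cells without Il4 did. Il5 was seen in 10 cells, all of them ILC2 of the Hamburg dataset (5.95% of 168, exact 95% interval 2.89 to 10.7%), with 13.5 UMIs. In ILC2 of Aachen and Bonn Il5 was listed at 0 in 179 and 77 cells, which allows a share of cells with a UMI of up to 1.68% and 3.90%. The Aachen part of the table holds few genes seen in only 1 or 2 cells (35 and 82 genes, against 495 seen in 3 cells), and whether Il5 was filtered there was not tested.

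Il1rl1 was highest in ILC2 at 2.77 ± 0.62, with facility values of 2.05, 3.13 and 3.13, and was found in 44.8% of the cells. The next cluster, Malat+ macrophages, stood at 0.24 ± 0.08. Il1rl1 also had a low level in macrophage clusters and in cDC2 (0.14 ± 0.06), and 34.2% of its 660 UMIs lay in macrophages against 47.0% in ILC2. The share of positive cells was 7.78% in cDC2 and 3.01 to 3.45% in Macrophage_1, Macrophage_2 and Macrophage_3, and 0.186% in B_cell_1.

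Il17rb was more restricted: 0.98 ± 0.45 in ILC2, 0.23 ± 0.06 in T_cell_4, 0.13 ± 0.04 in pDC and 0.02 or less everywhere else but in Malat+ T cells, where it rested on 1 cell. The facility ranges of the 3 leading clusters do not overlap each other. No B or NK cell cluster had an Il17rb UMI.

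Hs3st1 was highest in ILC2 (3.82 ± 2.73), followed by pDC (1.83 ± 0.14, n = 2 facilities), where 54.5% of 99 cells had a UMI. The lowest ILC2 value, 2.04 in Bonn, lay above both pDC values. B_cell_1 came to 0.34 ± 0.36, with 0.76 in Hamburg against 0.13 and 0.14 elsewhere, and together B cells held 23.9% and macrophages 24.9% of the 1356 UMIs. T cells had almost none: T_cell_1 gave 5 positive cells of 2375. Within the sulfotransferase family the cell types differed, because Hs3st3a1 was highest in Macrophage_3 (0.47) with a single UMI in ILC2, Hs3st3b1 was highest in Malat+ T cells (0.68), Hs3st6 had 3.74 UMIs and Hs3st2 none.

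Rora was the least restricted member, with 13.8% of its 3178 UMIs in ILC2 and 37.3% in T_cell_1. ILC2 (3.68 ± 1.31) and T_cell_4 (3.0 ± 1.2) overlapped in their facility ranges, 2.80 to 5.18 and 2.21 to 4.38. T_cell_1 (1.74 ± 0.27), Malat+ T cells (1.74 ± 0.87) and NK_cell_2 (1.48 ± 0.69) followed, overlapping each other, then T_cell_2 (0.76 ± 0.21), which overlapped NK_cell_2. The related receptor gene Rorb had 3.71 UMIs in all.

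Arg1 was found mainly in ILC2: 77.5% of its 185 UMIs lay in ILC2, at 1.20 ± 0.45 and in 21.2% of the cells. NK_cell_2 came next at 0.11 ± 0.10, with 15 positive cells of 527. All 15 carried the NK and innate lymphoid receptor gene Ncr1 and 12 carried Il7r, against 76.8% and 32.8% of the 512 cells without Arg1. The positive cells were deeper, with a median of 3676 against 2969 UMIs. Of the resident macrophage clusters, Macrophage_1 gave no UMI in 1996 cells, Macrophage_2 gave 2 and Macrophage_3 gave 1.

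**Figure D2:**
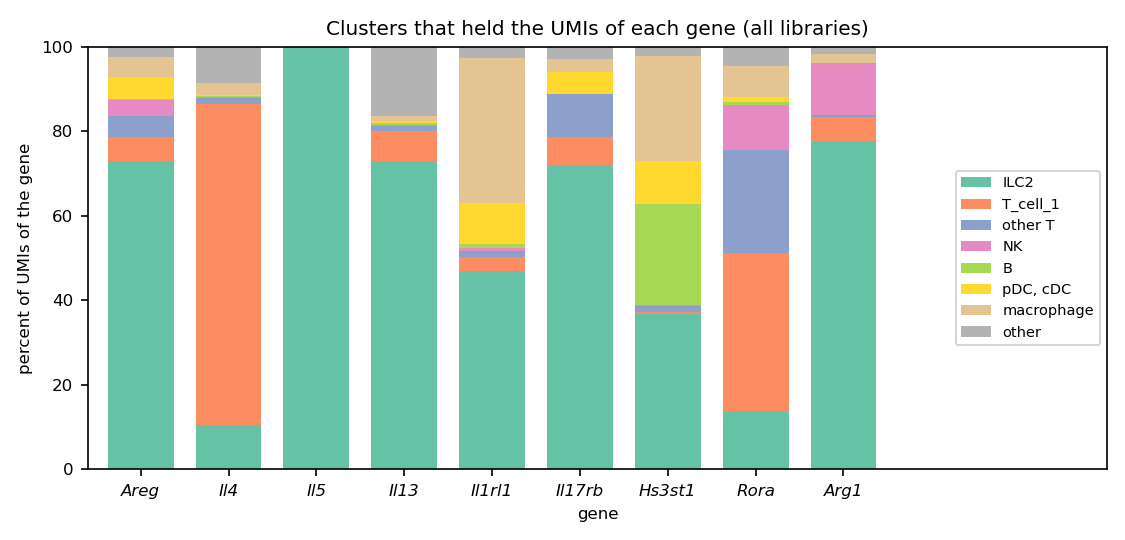
Share of each gene's UMIs over all libraries (vertical axis, percent) that lay in ILC2, T_cell_1, the other T cell clusters, NK, B, dendritic, macrophage and remaining clusters. ILC2, which are 2.09% of the cells, held 72.0 to 100% of the UMIs of Areg, Il5, Il13, Il17rb and Arg1, and 10.5% of those of Il4.

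Within ILC2 the members differed widely in how evenly the cells shared them. Il1rl1 was spread, with at most 5.93 UMIs in a cell and 7.07% of its UMIs in the 5 highest cells. Areg reached 96.9 UMIs in a cell, and 40 cells held 10 or more. Il13 was uneven, with 48.9% of its UMIs in 5 of its 54 positive cells and 48.0 UMIs in the highest of them, and of the 13.5 Il5 UMIs 66.0% lay in 5 of 10 positive cells. Of the 424 cells, 57 had no UMI of any member, 94 had a single member and 64 had 5 or more; the median number was 1 in Aachen, 3 in Bonn and 4 in Hamburg.

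Detection of the members together was described in the Hamburg ILC2, which held most of the cells with Il13 and all with Il5. Of 46 cells with Il13, 34.8% also had Il4, against 19.7% of 122 cells without Il13. Of the 10 cells with Il5, 7 had Il13 and 9 had Areg, and 1 had Il4. Areg was found in 73.8% of all Hamburg ILC2, and in 80.4% of those with Il13. Il4 was found in 21.0% of the 124 cells with Areg and 31.8% of the 44 without. Cells with a UMI of a member were deeper than the rest (a median of 3672 UMIs with Il13 and 1943 without, over all datasets), so these shares describe the cells as sequenced. Over all datasets and after thinning to 500 UMIs, Gata3 was detected in 42.6% of the cells with Il13 and 28.1% of those without. In cells with and without Areg the shares were 38.5% and 22.1%. Facility was not held fixed here: Hamburg gave 46 of 54 cells with Il13 and 122 of 370 without.

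**Figure D3:**
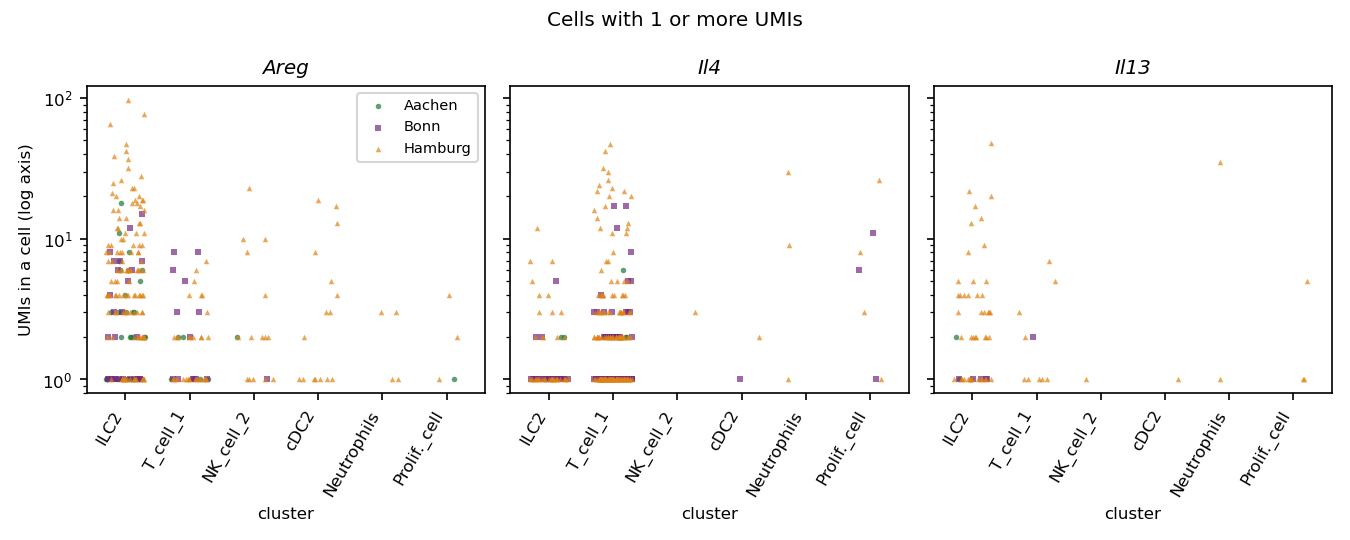
UMIs of Areg, Il4 and Il13 per cell (log axis, rounded to whole UMIs) in cells with at least 1, by cluster and facility. Few cells carry most UMIs: Areg reaches 96.9 in an ILC2 cell, Il4 47.0 in a T_cell_1 cell and Il13 48.0 in an ILC2 cell, all from Hamburg.

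The Il4-bearing T cells could be described further. In T_cell_1, 302 of 2375 cells had an Il4 UMI, 22 had 10 or more, and the 5 highest cells held 18.8% of the 941 UMIs. Zbtb16, which encodes PLZF, the transcription factor of natural killer T cells, was found in 27.5% of the cells with Il4 (exact 95% interval 22.5 to 32.9%) and in 6.90% of those without (5.84 to 8.08%). Ifng was found in 62.6% and 41.4%, and Foxp3 in 0 of 302 and 59 of 2073 cells. The cells with Il4 were deeper, with a median of 3348 against 2551 UMIs. After thinning to 500 UMIs the Zbtb16 shares were 4.97% and 1.41% and the Ifng shares 22.2% and 18.9%. All these shares pool the facilities, whose part in them was not tested. Il13 was present in 8 of the Il4-positive cells. Among proliferating cells, 7 of 149 had Il4, and 5 of these 7 had Zbtb16, against 11 of the 142 without Il4. The 7 cells were deeper, with a median of 10530 against 6155 UMIs.

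The next question was whether the members differed between the compartments within a cell class, the question of position that the series addresses. UMIs were summed per library and class and compared by edgeR's quasi-likelihood test with the facility as a block, and p-values were adjusted over all genes tested by the Benjamini-Hochberg method. No member passed an adjusted p of 0.05 in any class. In ILC2, 7 of the 9 members had enough counts to be tested, and Il5 and Il17rb did not. Of the 7, 0 passed medulla (mean of OM and IM) against cortex, where 0.0724% of the 1381 genes tested did. DESeq2 called 0 members as well. Under an unadjusted p of 0.05 were 1 of the 7 members and 88 of the 1381 genes. The members' median log2 fold change was 0.08, against -0.004 for all genes tested. The shares of genes called were 0.0724% for OM against cortex, 0.0724% for IM against cortex and 0.0% for OM against IM, where 62 genes were under an unadjusted p of 0.05 and DESeq2 also called 0; no member was among those called.

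Areg in ILC2 differed more between facilities than between compartments. In cortex it stood at 7.78, 1.45 and 18.6 UMIs per 10000 in Aachen, Bonn and Hamburg, in OM at 5.51, 9.45 and 21.4, and in IM at 5.47, 4.05 and 30.4. Every Hamburg library lay above every Aachen and Bonn library, and the compartments overlapped. The log2 fold change of medulla against cortex was 0.59 ± 0.39 (SE; adjusted p = 0.96). Hs3st1 was also highest in the 3 Hamburg libraries (6.10 to 8.31, against 0.88 to 3.96 in the other 6), with a log2 fold change of 0.08 ± 0.24. Facility and animals cannot be told apart here, nor can the earlier chemistry from the Aachen facility.

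Il13 gave the largest differences in ILC2. The cortex libraries held 4, 5 and 103 UMIs in Aachen, Bonn and Hamburg, the OM libraries 0, 0 and 23.8, and the IM libraries 0, 0 and 112. Per 10000 UMIs this was 0.61, 0.28 and 4.69 in cortex and 1.29 and 7.24 in the Hamburg OM and IM. In Aachen and Bonn, Il13 was thus seen in cortex only, at levels close to those that 3 counts would give in the OM and IM libraries (0.37 to 0.66). In Hamburg OM was below both other compartments, although in IM a single cell held 48.0 of the 112 UMIs. The log2 fold change was -0.87 ± 0.38 for medulla against cortex (adjusted p = 0.73), -2.07 ± 0.50 for OM against cortex (adjusted p = 0.38) and -2.40 ± 0.50 for OM against IM (adjusted p = 0.23). Without the filter on low counts the last pair passed (adjusted p = 0.0010 and 1.2e-04), and no other setting called either.

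Il1rl1 and Arg1 leaned towards the medulla in every facility without passing the test. Il1rl1 in ILC2 was 1.07, 2.79 and 2.83 in cortex, 2.08, 3.52 and 2.89 in OM and 3.21, 3.67 and 3.83 in IM (Aachen, Bonn and Hamburg). Both medullary libraries were above the cortex library of the same facility in all 3 facilities. Across facilities OM overlapped both other compartments, while every IM library lay above every cortex library. The log2 fold change was 0.43 ± 0.21 for medulla (adjusted p = 0.78) and 0.59 ± 0.23 for IM against cortex (adjusted p = 0.74). Arg1 was 0.46, 0.95 and 1.41 in cortex, 0.86, 1.76 and 2.21 in OM and 0.94, 1.39 and 1.35 in IM, so OM was above cortex in 3 of 3 facilities and IM in 2 of 3. Its log2 fold change was 0.52 ± 0.25 for medulla (adjusted p = 0.80) and 0.76 ± 0.28 for OM against cortex (adjusted p = 0.75).

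Il4 and Rora in ILC2 showed no shift between medulla and cortex beyond the error. Il4 was 0.76, 1.39 and 1.47 in cortex, 0.49, 0.88 and 1.18 in OM and 0.94, 0.51 and 1.86 in IM, with a log2 fold change of -0.30 ± 0.30. Rora was lower in OM than in IM in each facility (1.84 and 4.34 in Aachen, 2.86 and 3.54 in Bonn, 3.67 and 7.22 in Hamburg), with a log2 fold change of -0.85 ± 0.21 for OM against IM (adjusted p = 0.47) and 0.06 ± 0.17 for medulla against cortex. Il17rb, which was not tested, was 0.46, 1.23 and 1.72 in cortex, 0.37, 1.10 and 1.18 in OM and 0.75, 0.63 and 1.15 in IM, with only 3 to 38 UMIs in a library.

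**Figure D4:**
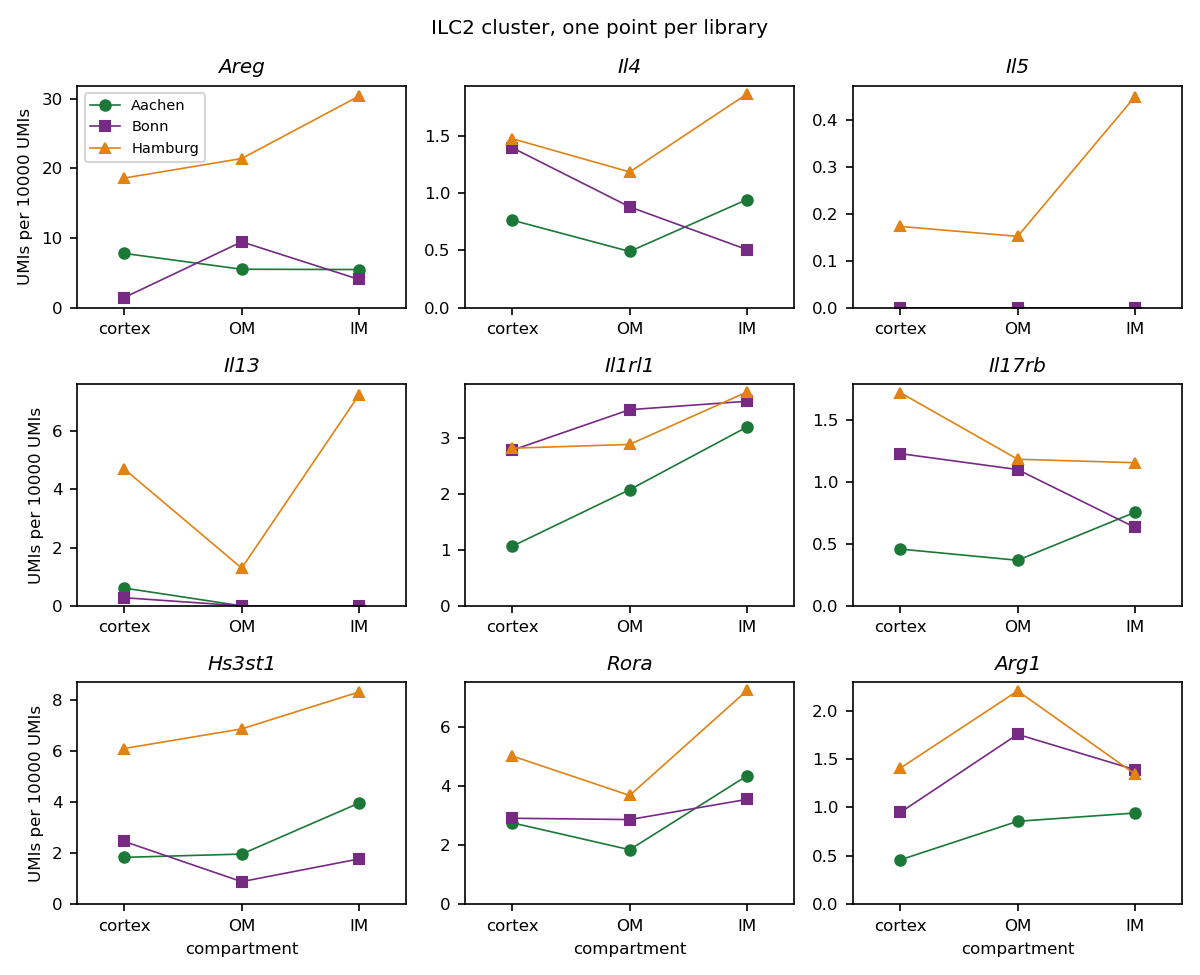
Level of each gene (UMIs per 10000 UMIs of the ILC2 cluster, axis from 0) in the 9 libraries, by compartment; lines join the libraries of a facility. Hamburg is highest throughout for Areg, Hs3st1 and Il13, Il1rl1 is higher in both medullary compartments than in cortex in each facility, and the Aachen and Bonn points for Il5 coincide at 0.

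Transcripts of other cell types were present in these ILC2 libraries. The summed level of 8 macrophage markers ranged from 3.94 to 21.5 UMIs per 10000 in cortex, 2.79 to 45.3 in OM and 2.28 to 30.5 in IM, and that of 7 mast cell markers from 0.46 to 15.3, 0.00 to 3.86 and 1.23 to 1.70. The edgeR test was repeated with the 322 cells that had fewer than 2 UMIs of macrophage and of B cell markers. The Bonn OM library, with 8 of these cells, fell under the minimum of 10 and was left out. The test was also repeated with the 408 cells with fewer than 2 UMIs of mast cell and basophil markers. Each time 0 members were called, with 1 under an unadjusted p of 0.05.

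ILC2 themselves made up 2.03 ± 0.77% of the immune cells in cortex, 2.29 ± 0.33% in OM and 2.02 ± 0.70% in IM (SD, n = 3). Single libraries ranged from 1.15% (42 of 3664 cells, exact 95% interval 0.827 to 1.55%) in Bonn cortex to 2.58% (95 of 3677, 2.10 to 3.15%) in Aachen OM. The difference of medulla minus cortex was -0.13, 0.43 and 0.08 percentage points in Aachen, Bonn and Hamburg. An exact two-sided permutation test of the compartment labels within facilities gave p = 0.67, with 0.037 as the smallest p its 27 arrangements allow. Among lymphoid cells (ILC2, T, NK and B cells) the difference was 1.19, 1.49 and 0.92 percentage points in the same order of facilities. The same permutation test gave p = 0.30. As the compartments were not weighed, the share cannot tell fewer ILC2 from more of the other cells.

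In T cells (clusters T_cell_1 to T_cell_4), Areg, Il4 and Rora could be tested. For medulla against cortex 0 of the 3 passed, where 0.0117% of 8522 genes did, and DESeq2 called 0 members. Under an unadjusted p of 0.05 were 503 of the 8522 genes and 1 of the 3 members. That member was Il4, with a log2 fold change of -0.92 ± 0.29 (adjusted p = 0.59). Its level in T cells was 0.21, 0.34 and 1.42 UMIs per 10000 in cortex, 0.07, 0.59 and 0.46 in OM and 0.22, 0.39 and 0.41 in IM. The lower medullary level came mainly from the Hamburg dataset, where cortex was above both other libraries. In Aachen OM was below cortex and IM was close to it. Bonn ran the other way, with cortex lowest. Without Bonn the call passed (-1.52 ± 0.21, adjusted p = 6.3e-04), without Hamburg the direction turned (0.31 ± 0.32), and it also passed without the filter on low counts (-0.96 ± 0.15, adjusted p = 2.5e-07). T_cell_1 made up 51.5 to 54.5% of the T cells in cortex, 33.0 to 44.9% in OM and 30.4 to 49.8% in IM, and its part in the Il4 difference was not tested. In T_cell_1 alone, a setting chosen after seeing the data, the log2 fold change was -0.38 ± 0.23 (adjusted p = 0.83). Within T_cell_1 the Il4 level was 0.44, 0.73 and 2.86 in cortex, 0.23, 1.33 and 1.48 in OM and 0.51, 0.81 and 1.50 in IM. Rora (-0.20 ± 0.14) and Areg (0.42 ± 0.37) in T cells did not pass.

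In NK cells Rora was the only member tested and did not pass (-0.78 ± 0.22, adjusted p = 0.49); 0.0% of 2908 genes passed, 132 of them were under an unadjusted p of 0.05, and DESeq2 called 0. Its level was 1.08, 0.58 and 1.88 in cortex, 0.14, 0.31 and 0.99 in OM and 0.33, 0.61 and 1.25 in IM, so OM was below cortex in 3 of 3 facilities and IM in 2 of 3. Without Bonn it passed (-0.86 ± 0.24, adjusted p = 0.033). NK_cell_2 had a Rora level of 1.48 ± 0.69, against 0.25 ± 0.26 in NK_cell_1. It made up 280 of 515 NK cells in cortex, 109 of 282 in OM and 138 of 336 in IM. Its part in the Rora difference was not tested, and within NK_cell_2 medulla was also below cortex in 3 of 3 facilities. Areg in NK cells, kept out by the filter, rested on Hamburg: 54.3 of its 73.9 UMIs in these cells came from NK_cell_2 of the Hamburg cortex.

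In resident macrophages (Macrophage_1 to Macrophage_3 and Isg+ macrophages), 1.23% of 8228 genes passed for medulla against cortex, and 0 of the 3 members tested did. None of the 3 was under an unadjusted p of 0.05, where 826 of the 8228 genes were, and DESeq2 called 0 members. Il1rl1 was 0, 0.17 and 0.06 UMIs per 10000 in cortex, 0.09, 0.24 and 0.09 in OM and 0.06, 0.18 and 0.08 in IM, again above cortex in both medullary libraries of each facility (0.59 ± 0.35, adjusted p = 0.63). These are low counts, with 0 to 69 UMIs in a library. In B cells 0.0353% of 8509 genes passed, Hs3st1 not among them (0.22 ± 0.18). In cDC2 0.293% of 4430 genes passed, with 0 members tested, and in monocytes 0.312% of 5455, with Rora the only member tested (-0.86 ± 0.61).

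Summed over all immune cells, 8 members were tested and 0 passed, where 0.00779% of 12835 genes did. DESeq2 called 0 members. Under an unadjusted p of 0.05 were 3 of the 8 members and 1518 of the 12835 genes. The 3 members were Il1rl1 (0.90 ± 0.24, adjusted p = 0.28), Rora (-0.65 ± 0.17, adjusted p = 0.28) and Il4 (-1.15 ± 0.36, adjusted p = 0.31). In such sums, fewer cells of a type and less RNA per cell cannot be told apart, and T cells made up 30.3 to 40.7% of immune cells in cortex, 12.0 to 19.0% in OM and 15.5 to 32.4% in IM. The Il1rl1 sum was 0.03, 0.09 and 0.09 in cortex, 0.15, 0.18 and 0.12 in OM and 0.13, 0.15 and 0.12 in IM. The 6 medullary libraries thus lay above the 3 cortical ones, and how many of all genes did the same was not counted. The single genes called in these comparisons were Gm42418 in ILC2, Gm8797 in T cells and the immunoglobulin gene segment Ighv1-22 in all cells, named here after their values were seen; the 3 called in B cells were Ighv13-2, Igkv14-100 and Kap.

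**Figure D5:**
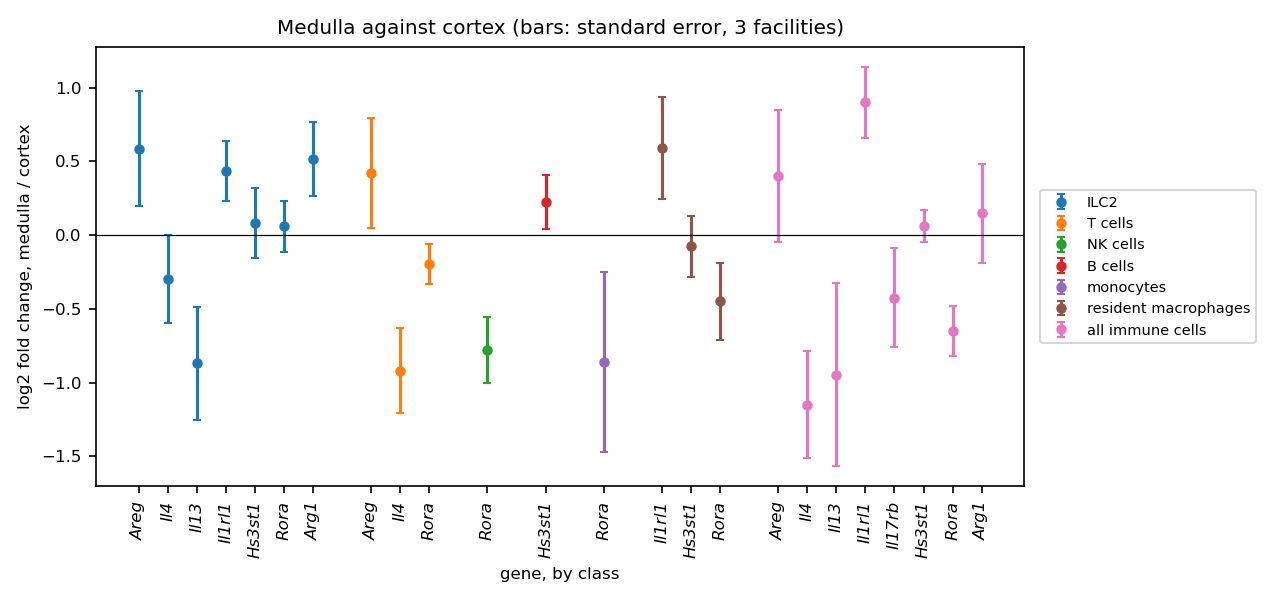
log2 fold change of medulla against cortex (vertical axis) for each member that could be tested, by cell class, from the edgeR fit with facility as a block; bars are standard errors. Il4 in T cells (-0.92), Rora in NK cells (-0.78) and over all immune cells (-0.65), and Il1rl1 over all immune cells (0.90) lie several standard errors from 0, and none passed after adjustment.

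The wider type 2 pathway was described from lists of 24 upstream signals and receptors, 19 regulators and 25 effectors and responders. The upstream cytokines were scarce among these immune cells: Il33, Il25, Tslp and Tnfsf15 were at 0 in ILC2, and over all cells Il33 had 2 UMIs, Tslp 10 and Il25 none. Of the receptor list 6 genes had their highest level in ILC2: Il2rg, Il2ra, Cysltr1, Il9r, Nmur1 and Vipr2. The 3 genes of the list with the highest level in ILC2 were the cytokine receptor chains Il2rg (10.6) and Il7r (7.34) and the costimulator Icos (3.53), of which Il7r and Icos were higher in T_cell_4. Of the regulators Id2 (9.78), a repressor needed by innate lymphoid cells, Gata3 (7.57) and Nfkbiz (6.40) were the 3 highest in ILC2. Of the effectors Csf2, the gene of GM-CSF, stood highest at 6.10, found in 24.8% of ILC2, followed by Odc1 (2.87), the first enzyme of polyamine synthesis, and Calca (1.42). Il9, Il3, Il10, Retnla and Chil3 were at 0 in ILC2, and Mrc1 and Il13ra1, a target and a receptor of IL-13, had their highest levels in Macrophage_3 (4.08) and neutrophils (0.92).

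In ILC2, 18 genes of these lists were tested between medulla and cortex, and 0 passed in either direction, with 2 under an unadjusted p of 0.05. In T cells 0 of 38 passed. Under an unadjusted p of 0.05 there were 4 of 13 upstream genes, 3 of 17 regulators and 2 of 8 effectors and responders, against 503 of all 8522 genes. In resident macrophages, where 1.23% of all genes passed, 3 of 26 did, all higher in the medulla: Ahr, the aryl hydrocarbon receptor (1.25 ± 0.26, adjusted p = 0.034), the transcription factor Maf (0.86 ± 0.18, adjusted p = 0.028) and Mrc1, the mannose receptor (0.97 ± 0.17, adjusted p = 0.017), by the same edgeR test. These 3 genes were not followed under the other settings, some of which called far fewer genes in this class. The make-up of this class differed between compartments: Macrophage_3, in which Mrc1 and Maf had their highest level, was 0 to 7.05% of the resident macrophages in cortex, 23.0 to 44.7% in OM and 1.17 to 43.1% in IM, and its part in these differences was not tested.

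Likeness was taken over 65 profiles of a cluster in a facility with at least 20 cells, as Pearson's r of log2 levels across profiles that share libraries and depth, among 13156 genes. The genes most like Areg were Arg1 (0.81), Il17rb (0.79) and Stab2 (0.78). Il17rb was most like Pard3 (0.94), Stab2 (0.89) and Hlf (0.83), and Arg1 was most like Rnf128 (0.91), Ccdc184 (0.91) and Akr1c12 (0.90). Il1rl1 was most like Cpa3 (0.80), Arg1 (0.79) and Rnf128 (0.78). Il13 was most like the basophil and mast cell genes Mcpt8 (0.89), Cyp11a1 (0.88) and Gata2 (0.85). The Mcpt8 UMIs in ILC2 came from 2 cells and those of Gata2 from 6. In ILC2, 84.3% of Il13 and 85.9% of Il1rl1 UMIs lay in cells without a mast cell or basophil marker UMI, Kit aside. Il4 was most like Ccr8 (0.76), Ptpn13 (0.69) and Tnfsf11 (0.66), Rora like Cish (0.92), Icos (0.91) and Podnl1 (0.90), and Hs3st1 like Tle2 (0.73), Ivns1abp (0.67) and Il17rb (0.67). Il5 had too few UMIs for this.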

How the data were processed

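Immune cells of 3 kidney compartments from 3 facilities were analysed, 9 libraries in all. Per the labels and the study's methods, reads were aligned to mm10 with Cell Ranger and filtered, clustered and named with Seurat, and the authors kept cells by number of genes and mitochondrial share. The deposited table holds estimated counts (UMIs) per cell and gene: Aachen and Bonn values are whole, Hamburg values are mostly not whole, for a reason not stated. Facility, compartment and cluster were taken from the table's own columns, and no doublet caller was run. Whether libraries share or pool animals was not stated in the sources used here. With facility as a block, p-values thus measure how the compartment differences varied between facilities, not between animals. The members and the lists were chosen with earlier results of these data known.

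Counts were summed per library and class (at least 10 cells), rounded, filtered with filterByExpr (minimum count 10), TMM-scaled and tested with edgeR 4.0.16 (R 4.3.3) with facility as a block, over all genes, at an adjusted p of 0.05. DESeq2 1.42.0 and the other settings were alternatives. Thinning drew 500 UMIs per cell with a fixed seed. Intervals are exact (Clopper-Pearson, 95%) and, like limits of 3 counts for a 0, cover counting error only. Any 2 libraries shared at most 16 barcodes. The fits were tested on simulated data. Named were the 9 members, list genes that passed or the 3 highest in ILC2, family genes, and the 3 genes most like each member by r (pseudocount 0.1, at least 50 UMIs).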

Additional observations from a re-analysis of the deposited data

Results flagged for a closer look

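Rora had medulla minus cortex differences of opposite sign in ILC2 and NK cells. The mean of the OM and IM levels was above cortex in 3 of 3 facilities in ILC2 and below it in 3 of 3 in NK cells, the only such case among 16 pairs of classes in which a member was tested in both. The difference between the classes was not itself tested, nor was the part that the make-up of the NK class had in it. In ILC2 the sign came from IM, since OM was below cortex in 3 of 3 facilities, as in NK cells. In ILC2 the fitted value was close to 0 (0.06 ± 0.17 on the log2 scale) and changed sign under some settings.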

How the results depend on the processing

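Leaving out the facility block, using DESeq2, upper quartile scaling, thinning to 500 UMIs, leaving out mixed cells, rounding the Hamburg values up and adding Malat+ T cells each left 0 members called in every class in which it was run and counted, medulla against cortex. The fit of NK cells without mixed cells was not in this count. Without the filter on low counts 1 member was called in T cells (Il4) and 1 in the other classes (Areg in NK cells, -3.40, adjusted p = 7.9e-06). Leaving out single facilities gave 0 to 1 members called in T cells (1 without Bonn, Il4) and 0 to 1 in the other classes (1 without Aachen, Areg in NK cells, adjusted p = 0.036, and 1 without Bonn, Rora in NK cells), and 0 in ILC2, resident macrophages and all immune cells. The ILC2 share difference ranged from -0.028 to 0.26 percentage points over these omissions, turning negative without Bonn. Over omissions of a facility, the fitted log2 fold change turned direction for Il4 in ILC2 (-0.33 to 0.012, turned without Bonn), Hs3st1 in ILC2 (-0.19 to 0.41, turned without Aachen, -0.063, and without Hamburg), Areg in T cells (-0.078 to 0.51, turned without Bonn) and Il4 in T cells (-1.52 to 0.31, turned without Hamburg). It also turned for Rora in ILC2 without mixed cells (-0.11) and, a setting chosen after seeing the data, without mast cell and basophil marker cells (-0.016). The cause was not tested. The number of members with their highest level in ILC2 was 8 with all facilities and without each of them, but without Hamburg Il4 became highest in ILC2 and Il5 had no UMI. The labels give no replicate numbers that the compartments share, and the facility, read from the table, paired the libraries as the block. Over all genes, 101 passed in resident macrophages, but 382 without the filter, 47 with DESeq2, 26 after thinning, 6 without Hamburg and 237 without Aachen, and 0 without the block; the single call became 32 in ILC2 and 107 in T cells without the filter, 8 in ILC2 without Aachen, 37 in T cells without Bonn, and 69 over all immune cells with DESeq2. Depth limits ILC2 most: 12 to 95 cells a library left 1381 genes to test.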
